A study of Mus musculus with 21 samples.

Results

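The 42 genes described here are expressed as cells pass from G2 phase into mitosis and through cell division. They were chosen as a list of symbols, without a threshold on their levels, and each of the 42 was found once among the 45706 Ensembl gene identifiers of the mouse RNA-seq count files. All 42 passed the filter on low counts that left 19555 genes for testing. The 21 libraries came from a mouse model of juvenile myelomonocytic leukemia (JMML) that carries the D61Y variant of Ptpn11, the gene of the phosphatase SHP2. The study compared leukemic with control mice in 3 cell fractions: LSK cells (lineage-negative, Sca-1+, c-Kit+ stem and progenitor cells of the bone marrow, BM), BM CD11b+ cells and spleen CD11b+ cells. By the study's methods, LSK cells were sorted after lineage depletion and CD11b+ cells were isolated on columns with a MACS kit. Each fraction had 2 MxCre libraries, 2 Ptpn11D61Y/+ libraries and 3 S3 libraries. MxCre mice carry Cre under the interferon-inducible Mx promoter and unaltered Ptpn11. Ptpn11D61Y/+ mice carry no Cre, so a Neo-Stop cassette keeps the mutant allele silent and 1 functional allele remains. S3 mice carry both, MxCre;Ptpn11D61Y/+, lose the cassette in hematopoietic cells, and were terminally ill when cells were taken. Mice of every group had received poly I:C, the controls included, and the labels give no age. Whole fractions were sequenced, so a lower level may mean fewer dividing cells or less RNA per dividing cell, which cannot be told apart here. Library totals ranged from 34992610 to 104509425 counts with a median of 69421661, and the 42 genes together received 29010 to 623785 counts per library.

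Cells enter mitosis when the kinase CDK1 binds cyclin B and is freed from inhibitory phosphates by CDC25 phosphatases. Polo-like and Aurora kinases then build the spindle, the checkpoint kinases BUB1 and TTK hold the anaphase-promoting complex (APC/C) until chromosomes are attached, and CDC20 and UBE2C act with that complex to end mitosis. Most of these genes are silent in resting cells and are switched on together late in the cell cycle by MuvB complexes with B-MYB and FOXM1, which act at promoter elements called CHR (cell cycle genes homology region) and at CCAAT boxes bound by NF-Y. In bone marrow, stem cells are mostly quiescent, early progenitors and erythroblasts divide, and mature neutrophils and macrophages largely do not.

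Promoter sequence was compared with that shared program because these genes moved together over the libraries. RefSeq windows on GRCm38.p6, from 250 bases before to 50 bases after the start site, were held for 36 of the 42 genes. The CHR letters TTTGAA, searched on both strands, were found in 26 of the 36 windows (72.2%) and in 20.2% of the windows of 27025 genes. The variant TTCGAA was found in 3 windows (8.33%), against 1.80% of all genes. CCAAT on either strand was found in 28 windows (77.8%), against 41.1% of all genes. Both TTTGAA and CCAAT were present in 22 windows (61.1%), against 7.97% of all genes. The E2F-like letters TTCCCGC were in 0 windows, against 5.29% of all genes, and TTGGCGC was in 4 (11.1%), against 2.85%. For 5 genes the 120 bases just before the RefSeq start site are shown, written 5′ to 3′ on the gene's strand, with matches to the CHR letters, their variant and the CCAAT box on either strand in capitals. Cdk1, Cdc20 and Top2a hold both kinds of match, Mki67 holds only the CHR letters in this stretch, and Birc5 is shown as an example of a member whose window holds none of them, which also holds for Nusap1, Nuf2 and Tacc3.
Cdk1 (chr10:69352913-69353032, minus strand): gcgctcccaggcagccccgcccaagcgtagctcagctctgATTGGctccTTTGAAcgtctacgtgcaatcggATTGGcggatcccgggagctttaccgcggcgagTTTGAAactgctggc
Cdc20 (chr4:118437344-118437463, minus strand): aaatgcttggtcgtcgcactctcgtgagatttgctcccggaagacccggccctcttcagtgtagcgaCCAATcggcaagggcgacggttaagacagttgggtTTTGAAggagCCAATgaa
Top2a (chr11:99024190-99024309, minus strand): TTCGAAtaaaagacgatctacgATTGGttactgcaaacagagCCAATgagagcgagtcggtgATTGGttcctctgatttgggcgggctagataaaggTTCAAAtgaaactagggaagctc
Mki67 (chr7:135716380-135716499, minus strand): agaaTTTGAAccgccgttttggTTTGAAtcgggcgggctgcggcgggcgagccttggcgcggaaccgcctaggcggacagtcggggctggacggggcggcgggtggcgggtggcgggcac
Birc5 (chr11:117849117-117849236, plus strand): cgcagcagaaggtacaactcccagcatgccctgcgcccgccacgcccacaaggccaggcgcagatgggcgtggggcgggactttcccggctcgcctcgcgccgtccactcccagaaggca
The windows of Birc5, Nusap1, Nuf2 and Tacc3 held none of the 3 motifs, as did 53.6% of all genes. GENCODE places the starts of Cdk1 and Cdc20 farther upstream than RefSeq, so the last 26 and 9 of their 120 bases lie within the gene as given by GENCODE, the source of gene positions here. A match is only a run of letters and was not tested as a binding site.

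The labels of the fractions were checked against defining markers before any comparison. Kit, the stem cell factor receptor, was at 8.17 to 9.06 log2 CPM (counts scaled to a common library size) in the 7 LSK libraries and at 2.26 to 6.19 in the CD11b+ libraries. Itgam, which encodes CD11b, was at 4.98 to 6.84 in LSK and at 7.24 to 10.70 in the CD11b+ libraries. BM MxCre 1 stood apart. It held 14885 detected genes, against 17493 in BM MxCre 2, and the macrophage genes Vcam1, C1qa and Spic were at 11.34, 12.62 and 8.33 log2 CPM, against 6.84, 7.21 and 2.98 in BM MxCre 2. Spleen MxCre 1 and BM S3 815 also had few detected genes, 14641 and 14761. BM S3 640 stood apart the other way: it had the most detected genes of the BM libraries, 22865, and its 10 most abundant genes took 6.52% of counts, against 15.9% to 27.1% in the other 6. Xist, transcribed from the inactive X chromosome, did not follow all library numbers across fractions: S3 540 had 1 count in LSK, 2780 in BM and 712 in spleen. MxCre 2 had 9, 2834 and 4 Xist counts in the same order, and Ptpn11D61Y/+ 1 had 17, 1 and 4753. Within S3, the BM and spleen libraries of each animal were alike in having Xist or not (3154 and 3941 counts in 815, 9 and 1 in 640). The control numbers and the LSK libraries were therefore not taken to mark the same mouse across fractions. Xist also divided the LSK groups: S3 815 and 768 had 39460 and 88850 counts and S3 540 had 1. The LSK controls had 12 and 9 in MxCre and 17 and 11 in Ptpn11D61Y/+. The part of sex in the LSK comparisons was not tested.

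As a group, the 42 genes were lower in most spleen CD11b+ libraries than in LSK and BM CD11b+ libraries. BM MxCre 1, below the spleen controls, and spleen S3 640, at the level of BM, were the exceptions. Their mean level was 5.82 ± 0.04 log2 CPM in MxCre LSK cells (SD, n = 2), 5.63 ± 0.05 in Ptpn11D61Y/+ LSK cells (n = 2) and 6.35 ± 0.09 in S3 LSK cells (n = 3). The LSK groups did not overlap, S3 being highest. In BM CD11b+ cells the mean was 3.27 in MxCre 1 and 6.74 in MxCre 2, 7.07 and 6.85 in the Ptpn11D61Y/+ libraries, and 6.85, 6.09 and 5.60 in S3 540, 815 and 640. The BM MxCre libraries lay farther apart than any other pair of one group. In spleen CD11b+ cells it was 3.69 and 4.34 in MxCre, 4.08 and 3.92 in Ptpn11D61Y/+, and 4.93, 4.47 and 6.41 in S3 540, 815 and 640. By this mean all S3 spleen libraries were above all controls, and 640 was as high as an LSK library. By summed CPM they were not: the spleen sums were 1327 and 1609 CPM in MxCre, 1002 and 936 in Ptpn11D61Y/+, and 1788, 1550 and 5143 in S3, with 815 below MxCre 2. Summed over the group, the 42 genes made up 3195 and 3318 CPM in MxCre LSK cells and 4564, 4171 and 4661 CPM in S3 LSK cells.

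**Figure D1:**
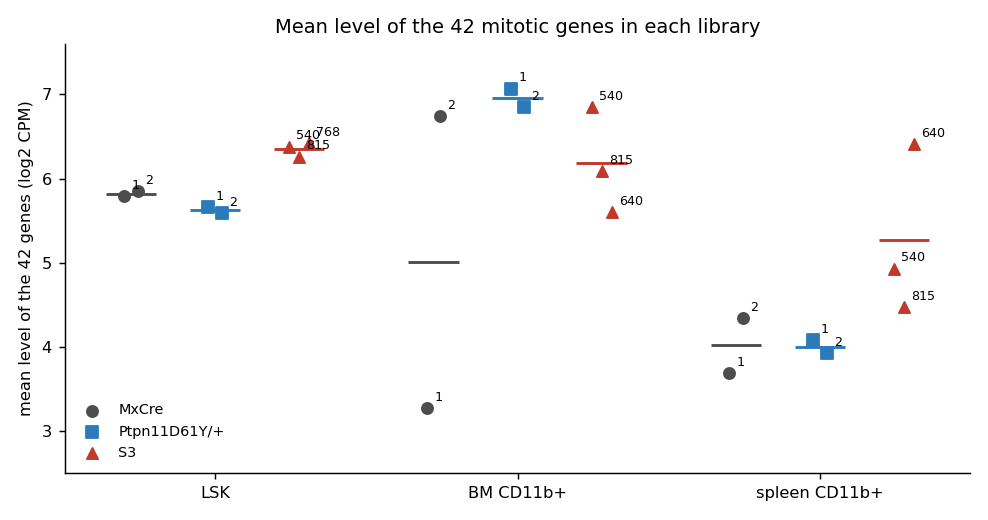
Mean level of the 42 genes (log2 CPM, vertical axis) in each of the 21 libraries, by fraction and genotype. Each point is a library labelled with its replicate or animal number and each line is the group mean; LSK groups are tight, BM MxCre 1 lies at 3.27 against 6.74 for BM MxCre 2, and spleen S3 640 lies at 6.41 above the other spleen libraries.

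Most members rose and fell together over the 21 libraries. The Pearson correlation of a member with the mean of the other 41 had a median of 0.938 and reached 0.994 (n = 21 libraries). These libraries share fractions and cell isolation, so this is a description. The lowest were Birc5 (0.350), Cks2 (0.365), Ube2c (0.455), Cenpa (0.601) and Cdca3 (0.648). The 26 members whose window holds TTTGAA had a median of 0.930 and a lowest value of 0.455, and the 10 without it a median of 0.949 and a lowest of 0.350. Birc5 and Cks2 are among those without, and Ube2c, Cenpa and Cdca3 among those with it.

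**Figure D2:**
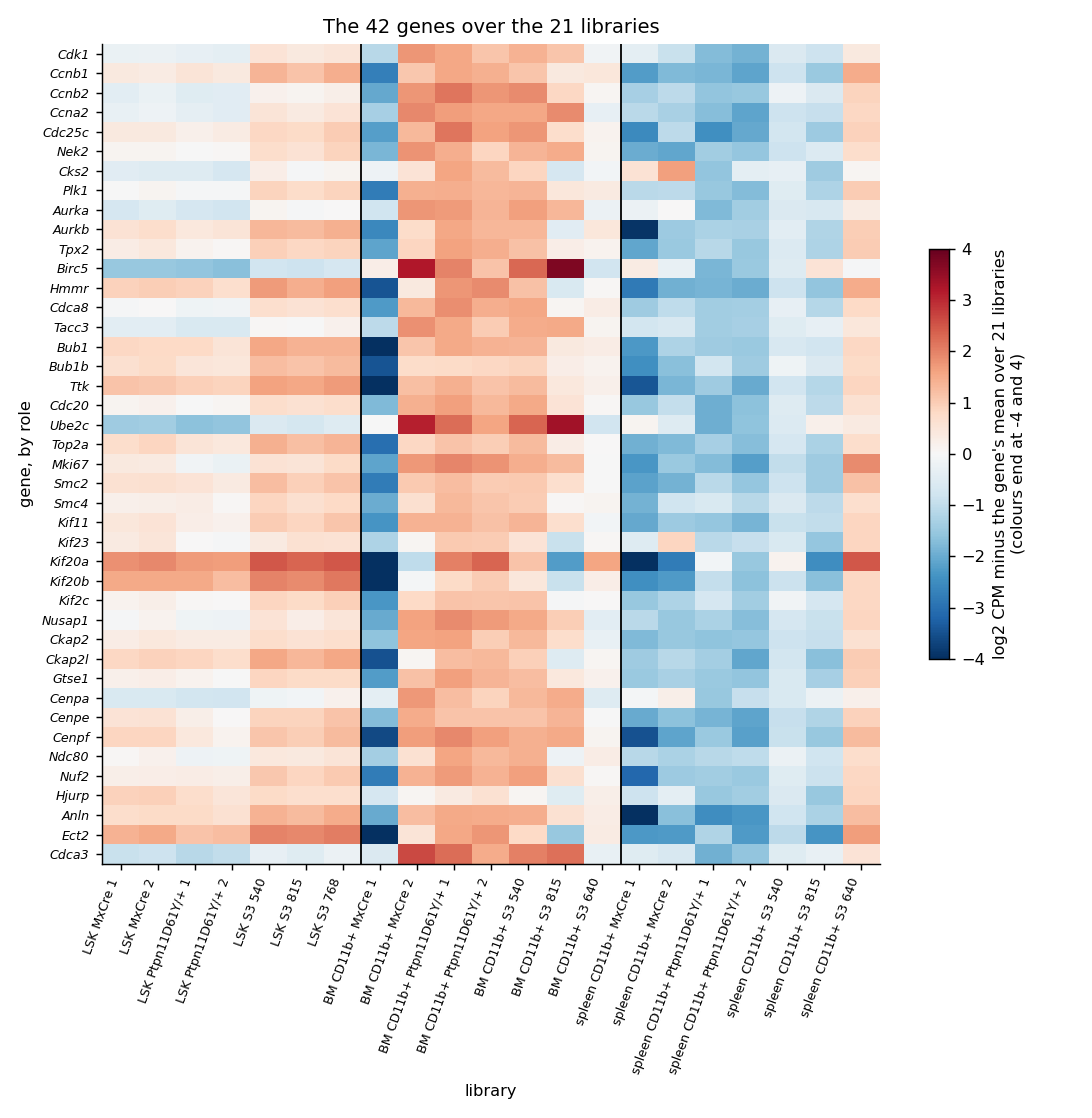
Level of each of the 42 genes (rows, by role) in each of the 21 libraries (columns), as log2 CPM minus the gene's mean over the 21 libraries; red is above and blue below that mean. The 3 S3 LSK columns are redder than the 4 LSK control columns for nearly every gene. BM MxCre 1 is the bluest BM column for most genes, and Birc5 and Ube2c are reddest in BM MxCre 2 and BM S3 815.

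In LSK cells, the comparison of S3 with control mice asks whether stem and progenitor cells of leukemic mice carry more mitotic transcripts. Every S3 library was higher than every control library for 40 of the 42 genes, where 22.4% of all 19555 genes lay above in this way. The exceptions were Kif23, a motor of cytokinesis, and Hjurp, the chaperone that places CENP-A at centromeres. The median change from MxCre to S3 was 0.54 (log2), or 1.45-fold, beside 0.01 over all genes, and 41 of 42 members were higher. Animal 815 showed a smaller median shift, 0.45, than 540 and 768, both at 0.60. All 5 promyelocyte markers were higher in the same 3 libraries, with a median change of 1.54 (edgeR called 0, 3 passed at an unadjusted p under 0.05 against 3.97% of all genes, DESeq2 called 1 higher, where 0.128% of genes were, and limma-voom 0) and summed levels of 4923, 4371 and 6102 CPM against 2007 and 1629 in MxCre and 2730 and 2684 in Ptpn11D61Y/+. The most abundant, Mpo, was at 11.64, 11.36 and 11.90 log2 CPM against 10.20 and 10.01 in MxCre, and the stem cell gene Hlf was lower, at 6.51, 5.91 and 5.43 against 7.36 and 7.32. Their part in the result was not tested. Nor was that of sex: Xist was high in S3 815 and 768 but not in S3 540 or the LSK controls.

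The test depended on which libraries set the spread. In the edgeR quasi-likelihood fit of all 21 libraries, 0 of the 42 genes passed an adjusted p of 0.05 in either direction, where 0.0307% of all genes did. At an unadjusted p under 0.05 the count was also 0, against 3.97% of all genes, and DESeq2 and limma-voom called 0. The standard error of the members' changes had a median of 0.72 in that fit, above their median change. It is estimated over LSK and CD11b+ libraries together. When the fit held only the MxCre and S3 LSK libraries, 38 members were called higher, where 13.2% of 17561 genes were, and 1, Hjurp, lower, where 13.6% were. A fit of the 7 LSK libraries alone, an alternative chosen after seeing the data, called 38 higher and 0 lower, where 16.3% of 18057 genes were called higher. The 4 not called were Hjurp, Cenpf, Mki67 and Kif23. The smallest adjusted p of edgeR's test in that fit was 0.00136 and the largest among those called was 0.0219.

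**Figure D3:**
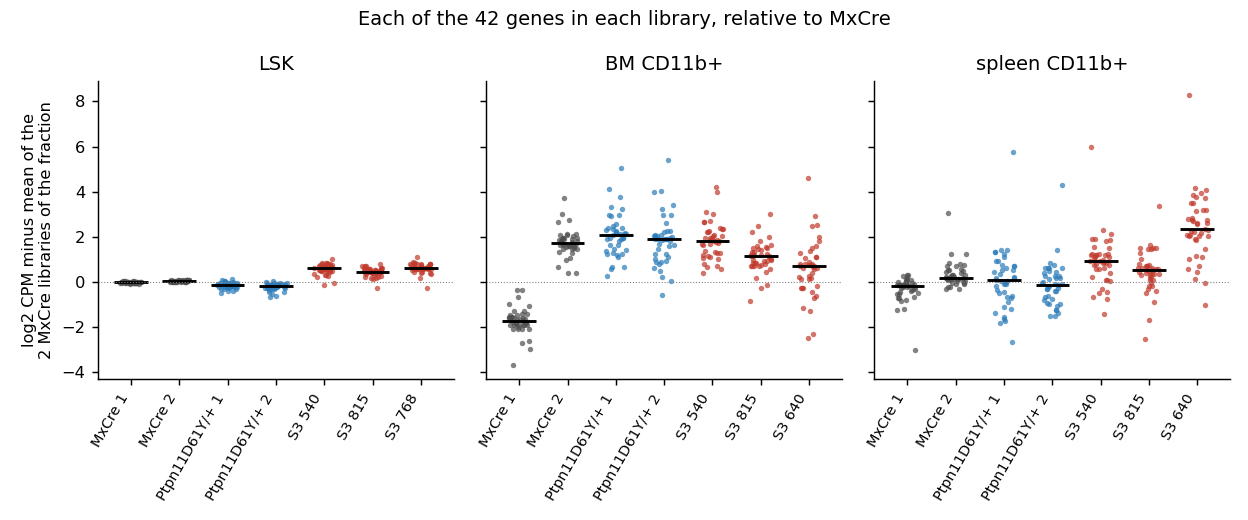
Each point is 1 of the 42 genes in 1 library, as its log2 CPM minus the mean of the 2 MxCre libraries of that fraction; black bars are medians over the 42 genes. LSK medians are 0.60, 0.45 and 0.60 in S3 540, 815 and 768 with little scatter, while the BM MxCre libraries sit at -1.73 and 1.73 and spleen S3 640 at 2.32.

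In spleen CD11b+ cells, the same comparison gave larger and less even differences. The median change from MxCre to S3 was 1.47 (log2), or 2.78-fold, beside 0.32 over all genes, with 38 members higher and 4 lower. All 3 S3 libraries lay above all 4 controls for 19 members, where 3.41% of all genes did so. The shift was largest in animal 640, at a median of 2.32, against 0.91 in 540 and 0.50 in 815. Without 640 the median was 0.72. In the 21-library edgeR fit 0 of 42 members passed, where 4.19% of all genes were called in either direction. At an unadjusted p under 0.05, 22 members passed, 21 higher and 1 lower, against 25.3% of all genes. DESeq2 called 13 members higher, where 6.63% of the 29626 genes it gave a p were, and 1 lower, where 4.94% were. limma-voom called only Cks2, lower, where 3.99% of genes were.

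Erythroid genes moved with the mitotic genes in these spleen libraries. All 12 tested of 13 erythroid markers were higher in S3 than in MxCre spleen, with a median change of 3.65, and 3 of the 12 were called higher, where 1.51% of all genes were, among them Alas2, an enzyme of heme synthesis, and Hbb-bs, a beta globin. Their mean level was 4.54 and 3.68 in MxCre, 6.17 and 3.49 in Ptpn11D61Y/+, and 7.46, 6.82 and 9.82 in S3. Summed, they reached 3489 and 1186 CPM in MxCre, 5210 and 1189 in Ptpn11D61Y/+ and 14690, 16010 and 30230 in S3. Hba-a1, an alpha globin gene, was the most abundant, and 1 marker had 0 counts in MxCre 1. Over the 14 CD11b+ libraries the mean of the 12 markers and that of the 42 genes had a Pearson correlation of 0.874. In the 7 LSK libraries it was -0.228. These are descriptions over libraries that share cell isolation and depth. Their part in the spleen result was not tested.

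**Figure D4:**
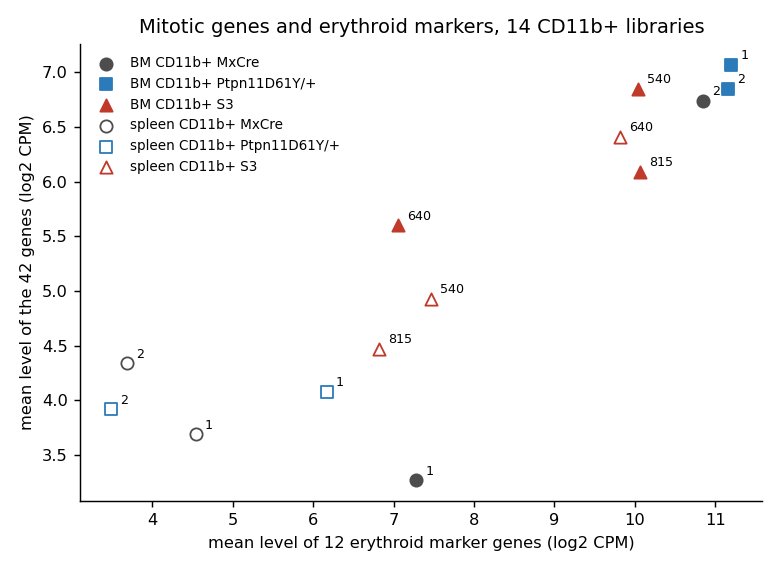
Mean level of 12 erythroid marker genes (horizontal axis, log2 CPM) against mean level of the 42 mitotic genes (vertical axis, log2 CPM) in the 14 CD11b+ libraries; filled symbols are BM, open symbols spleen, and numbers name the library. Spleen S3 640 (9.82 and 6.41) lies among the BM libraries, and BM MxCre 1 (7.28 and 3.27) lies below the others.

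In BM CD11b+ cells, S3 did not stand apart from the controls. The median change from MxCre to S3 was 0.42 beside 0.18 over all genes, 0 of 42 members were called, as were 0% of all genes, and 0 passed at an unadjusted p under 0.05, against 15.5% of all genes. DESeq2 and limma-voom also called 0. All 3 S3 libraries lay above all 4 controls for 0 members, where 1.78% of all genes did. The value rests on a single control library: without MxCre 1 the median was -0.46, and without MxCre 2 it was 2.95 with 29 members called higher, where 5.51% of genes were, the only MxCre library left being MxCre 1. S3 640 was the lowest S3 library at a mean of 5.60, and its erythroid mean was 7.06, against 10.04 in 540 and 10.06 in 815.

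By role, CDK1 with its cyclins and entry factors comprised 7 genes, with median changes from MxCre to S3 of 0.62 in LSK, 1.37 in spleen and 0.23 in BM. Cdk1 (chr10:69335146-69352938), the kinase itself, was at 6.04 and 6.06 log2 CPM in MxCre LSK cells, 5.98 and 5.93 in Ptpn11D61Y/+ and 6.84, 6.70 and 6.79 in S3. The S3 values lay above all controls, a change of 0.73 with a standard error of 0.59 in the 21-library fit. In spleen Cdk1 was at 5.93 and 5.42 in MxCre, 4.58 and 4.43 in Ptpn11D61Y/+, and 5.74, 5.47 and 6.69 in S3, so MxCre and S3 overlapped. Ccnb1 (cyclin B1) had the largest LSK change, 0.96 ± 0.81 (standard error). It was at 5.51 and 5.46 in MxCre, 5.63 and 5.52 in Ptpn11D61Y/+ and 6.48, 6.26 and 6.58 in S3. In BM its levels were 2.38 and 6.19 in MxCre, 6.68 and 6.55 in Ptpn11D61Y/+ and 6.22, 5.52 and 5.57 in S3. In spleen it was at 2.88 and 3.35 in MxCre, 3.30 and 3.01 in Ptpn11D61Y/+, and 4.30, 3.65 and 6.61 in S3, all S3 values being higher.

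Cks2, a small CDK-binding protein of this role, went the other way in spleen. It was at 6.29 and 7.37 log2 CPM in MxCre spleen, 4.14 and 5.33 in Ptpn11D61Y/+, and 5.38, 4.29 and 5.79 in S3. Spleen Ptpn11D61Y/+ 1, at 4.14, also held 3.785% mitochondrial counts, against 0.164% to 1.098% in the other libraries. The part of this library's quality in the Cks2 values was not tested. Both other genotypes lay below MxCre: by edgeR the change was -2.08 in Ptpn11D61Y/+ (adjusted p = 0.0425) and -1.65 in S3 (adjusted p = 0.0617). The call in Ptpn11D61Y/+ was lost when counts were scaled by library size alone (adjusted p = 0.1025), in fits of the 2 groups (0.0847) or of the 7 spleen libraries (0.164), and without spleen MxCre 2 (0.181), Ptpn11D61Y/+ 1 (0.357) or Ptpn11D61Y/+ 2 (0.0596), with changes of -1.43 to -2.79. It was kept by DESeq2 (adjusted p = 0.0021), limma-voom (0.0257), RLE size factors (0.0328), the replicate block (0.000436), both other filters, and without spleen MxCre 1 (0.0417) or the 3 libraries with the fewest detected genes (0.0159). In LSK it was 0.62 higher in S3, at 5.99, 5.68 and 5.83 against 5.25 and 5.20. Cks2 overlaps another annotated gene on its strand, so part of its counts could belong to that gene.

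The Polo and Aurora kinases with their cofactors comprised 8 genes, with median changes of 0.64 in LSK, 1.17 in spleen and 0.34 in BM. Plk1, the Polo-like kinase that drives entry and spindle assembly, was at 5.62 and 5.74 log2 CPM in MxCre LSK, 5.57 and 5.57 in Ptpn11D61Y/+ and 6.52, 6.37 and 6.52 in S3. In spleen it was at 4.55 and 4.59, 4.10 and 3.90, and 5.13, 4.38 and 6.65 in the same order, with S3 815 inside the control range. Aurkb, the Aurora kinase of the chromosomal passenger complex, was at 6.13 and 6.26 in MxCre LSK, 6.0 and 6.09 in Ptpn11D61Y/+ and 6.88, 6.82 and 6.98 in S3. In spleen Aurkb was at 1.63 and 4.10 in MxCre, 4.29 and 4.28 in Ptpn11D61Y/+ and 5.14, 4.36 and 6.56 in S3. Its spleen change was 2.32, with MxCre 1 far below the other spleen libraries. In BM it was at 3.00 and 6.31, 7.11 and 6.90, and 6.88, 5.10 and 6.03. Hmmr, a spindle protein that positions TPX2, changed by 0.64 in LSK and 2.60 in spleen, and Tacc3 by 0.50 and 0.63.

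The spindle checkpoint and APC/C members comprised 5 genes, with median changes of 0.52 in LSK, 1.68 in spleen and 0.48 in BM. Bub1, a checkpoint kinase of the kinetochore, was at 5.14 and 5.12 log2 CPM in MxCre LSK, 5.12 and 4.85 in Ptpn11D61Y/+ and 5.86, 5.71 and 5.73 in S3. In BM MxCre 1 it was at -2.00, from 6 counts, against 5.43 in MxCre 2, 5.85 and 5.73 in Ptpn11D61Y/+ and 5.68, 4.71 and 4.61 in S3. Cdc20, the APC/C activator, was at 6.21 and 6.27 in MxCre LSK, 6.07 and 6.17 in Ptpn11D61Y/+ and 6.79, 6.70 and 6.80 in S3. The gain in LSK was seen in each S3 animal for both genes. In spleen Bub1 was at 2.04 and 3.08, 2.91 and 2.83, and 3.67, 3.57 and 5.16, and Cdc20 at 4.58 and 5.14, 4.14 and 4.47, and 5.59, 5.04 and 6.72, so that for Cdc20 S3 815 fell among the controls. Ttk (MPS1) and Bub1b (BUBR1) changed by 2.35 and 2.12 in spleen.

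The chromosome structure genes and Ki-67 comprised 4 genes, with median changes of 0.51 in LSK, 1.89 in spleen and 0.55 in BM. Top2a, the topoisomerase that untangles sister chromatids, was at 8.53 and 8.68 log2 CPM in MxCre LSK, 8.34 and 8.23 in Ptpn11D61Y/+ and 9.24, 9.01 and 9.18 in S3. In spleen it was at 5.89 and 6.04, 6.5 and 6.12, and 7.15, 6.54 and 8.52. Smc4, a condensin subunit, was at 7.04 and 7.07 in MxCre LSK, 7.13 and 6.87 in Ptpn11D61Y/+ and 7.69, 7.47 and 7.61 in S3. Within LSK, both genes were higher in each S3 library than in each control.
Mki67, which encodes the proliferation marker Ki-67, differed less from MxCre than from Ptpn11D61Y/+ in LSK: it was at 8.53 and 8.48 in MxCre, 8.0 and 7.87 in Ptpn11D61Y/+ and 8.70, 8.66 and 8.88 in S3, a change of 0.25 against MxCre and 0.80 against Ptpn11D61Y/+ in the fit of the 7 LSK libraries. In spleen it was at 5.80 and 6.64 in MxCre, 6.41 and 5.92 in Ptpn11D61Y/+, and 7.14, 6.70 and 10.01 in S3. Animal 640 alone held Mki67 at 19.99% of the summed CPM of the 42 genes, against 4.21% to 8.46% in the other spleen libraries.

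The mitotic kinesins and spindle proteins comprised 9 genes, with median changes of 0.50 in LSK, 1.45 in spleen and 0.46 in BM. Kif20a (MKLP2), a kinesin of the central spindle, had the largest spleen change, 4.99 ± 1.66 (standard error). It had 0 counts in spleen MxCre 1 and 79 in MxCre 2, levels of -5.26 and 0.81 log2 CPM, against 3.51 and 2.09 in Ptpn11D61Y/+ and 3.75, 1.12 and 6.08 in S3. S3 815 lay below both Ptpn11D61Y/+ libraries. Kif23 changed by 0.10 in LSK and -0.41 in spleen, where it was at 5.39 and 6.77 in MxCre and 5.32, 4.38 and 6.78 in S3. Kif11, the kinesin that separates spindle poles, changed by 0.50 and 1.64.

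The kinetochore and centromere genes comprised 6, with median changes of 0.37 in LSK, 1.48 in spleen and 0.37 in BM. Cenpf changed by 0.27 in LSK and 2.78 ± 1.06 in spleen, where it was at 1.35 and 2.75 in MxCre, 3.37 and 2.68 in Ptpn11D61Y/+ and 3.95, 3.33 and 6.12 in S3. Cenpa, the centromeric histone, changed by 0.59 in LSK and -0.25 in spleen. Hjurp was the only member lower in S3 LSK cells than in MxCre, at 8.39, 8.28 and 8.28 against 8.54 and 8.55, but the Ptpn11D61Y/+ libraries were at 8.30 and 8.10, so S3 did not lie outside the controls. The 3 cytokinesis and other division genes Anln, Ect2 and Cdca3 changed by 0.65, 0.53 and 0.54 in LSK and by 2.61, 2.65 and 0.55 in spleen. Cdca3 had the lowest BM change, -0.11, and Kif20a, Ckap2l and Kif20b the highest, 2.77, 1.11 and 1.06.

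**Figure D5:**
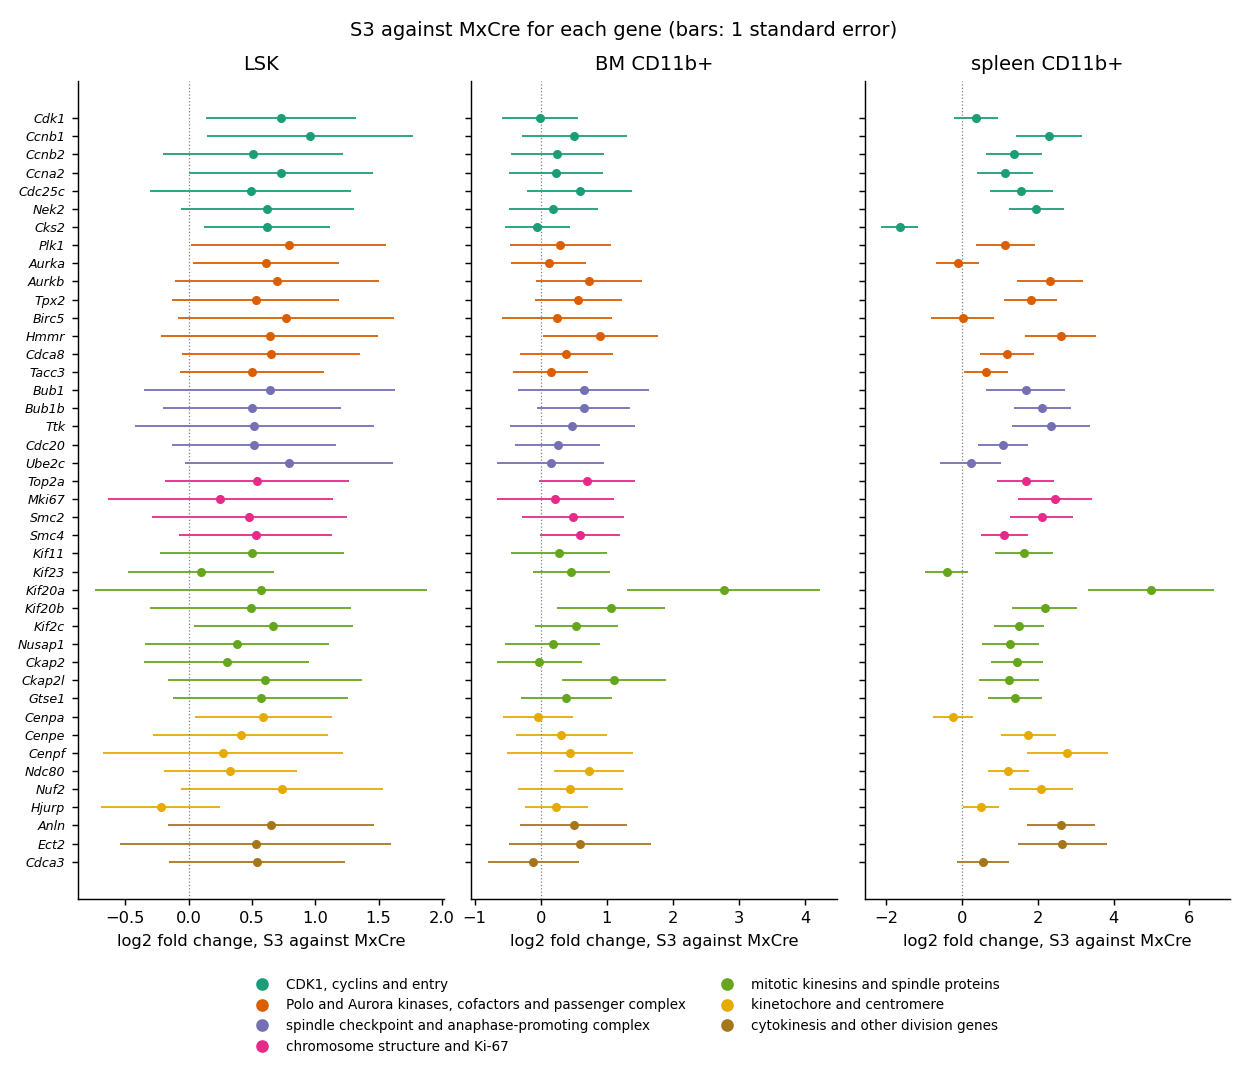
Log2 fold change from MxCre to S3 for each of the 42 genes in LSK, BM CD11b+ and spleen CD11b+ cells, from the 21-library edgeR fit; bars are 1 standard error and colours are roles, and the horizontal scales differ between panels. In LSK 41 of 42 points lie above 0 with a median of 0.54, and in spleen 38 lie above 0 with Cks2 lowest at -1.65.

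The 2 control groups were also compared. They differ in the silenced allele and in the MxCre transgene, which cannot be told apart here. In LSK the median was -0.15 beside -0.01 over all genes, 0 members were called where 0.0614% of genes were, and 0 passed at an unadjusted p under 0.05, against 1.69% of all genes. Mki67, Cenpf and Cenpe were lowest at -0.57, -0.55 and -0.44, and Ccnb1 highest at 0.09. DESeq2 and limma-voom also called 0. A fit of the MxCre and Ptpn11D61Y/+ LSK libraries alone called 7 members, all lower, where 7.84% of genes were, and the fit of the 7 LSK libraries called Mki67 lower, at -0.56, where 1.31% of genes were. In spleen the median was -0.04 beside 0.20, and 1 member, Cks2, was called lower, where 3.02% of genes were. In BM the median was 1.08 beside 0.27, but 0.21 without BM MxCre 1 and 3.71 without BM MxCre 2; 0 members were called as were 0% of genes, 7 of 42 passed at an unadjusted p under 0.05 against 22.6% of all genes, DESeq2 called 1 higher, where 2.85% of genes were, and limma-voom 0. Kif20a, Hmmr and Ect2 were highest there at 4.11, 2.34 and 2.10, and Birc5 lowest at -0.76. Without BM MxCre 2 the edgeR count was 35, all higher, where 8.6% of genes were. Neutrophil markers differed between these control groups. Of 12 immature and mature neutrophil markers, 5 were called lower in Ptpn11D61Y/+ than in MxCre LSK libraries, where 0.0614% of all genes were called, and 8 were called lower in spleen, where 3.02% were, with 0 called in BM. Ltf (lactoferrin), a granule protein, was 7.41 lower on the log2 scale in LSK, and S100a8, a cytosolic calcium-binding protein, 4.26 lower in spleen. The part of neutrophil transcripts in the mitotic gene values was not tested.

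Against Ptpn11D61Y/+, S3 LSK cells had a median change of 0.75 (1.68-fold) beside 0.04 over all genes, and all 42 members were higher. 0 were called in the 21-library edgeR fit, where 0.0972% of genes were, and 0 passed at an unadjusted p under 0.05, against 5.74% of all genes. In the fit of the 7 LSK libraries, 41 were called higher, where 19.5% of genes were, and Hjurp was not. Ube2c, Plk1 and Ccna2 changed most, by 1.01, 0.90 and 0.87, and Hjurp, Ckap2 and Kif23 least, by 0.12, 0.33 and 0.53. In spleen the median was 1.49 beside 0.07, or 0.74 without S3 640, with 0 called where 0.00511% of genes were and 17 of 42 members higher at an unadjusted p under 0.05, against 8.88% of all genes in either direction. Anln, Mki67 and Ccnb1 were highest at 2.58, 2.55 and 2.27, and Cks2, Smc4 and Kif23 lowest at 0.43, 0.70 and 0.91. In BM the median was -0.64 beside -0.03, with 0 called as were 0% of genes, and 1 member lower at an unadjusted p under 0.05, against 8.22% of all genes. All 3 S3 libraries lay below both Ptpn11D61Y/+ libraries in BM for 18 members, where 18.2% of all genes did. Birc5 (1.01) and Ube2c (0.48) were the only members above 0, and Ect2, Hmmr and Kif20a were lowest at -1.50, -1.43 and -1.34. DESeq2 and limma-voom called 0 members against Ptpn11D61Y/+ in each of the 3 fractions. These comparisons share the S3 libraries with those against MxCre.

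Between fractions, spleen CD11b+ cells of MxCre mice held fewer mitotic transcripts than LSK cells. The median was -2.01, a level 0.25 of that in LSK, beside -0.34 over all genes. In the 21-library fit 19 members were called lower, where 22.4% of genes were, and 1, Cks2, higher by 1.71 (adjusted p = 0.0228), where 19.2% of genes were. Kif20a, Kif20b and Ect2 were lowest at -5.67, -3.87 and -3.75 (edgeR adjusted p = 0.0186, 0.00637 and 0.0303). Aurkb, Top2a, Bub1b, Ttk, Anln and the condensin subunit Smc2 were also called lower, by 2.63 or more. Without LSK MxCre 1, 4 members were called lower, where 11.7% of genes were, and without LSK MxCre 2, 3 were, where 12.4% were. Without spleen MxCre 2, 7 were called lower, where 15.2% of genes were. Without spleen MxCre 1 only Cks2 was called, higher, where 14% of genes were. In S3 mice the median was -0.82 beside 0.02, and only Kif20b was called lower (-2.18, adjusted p = 0.0373), where 11.6% of genes were. Without spleen S3 640, 15 members were called lower, where 15.5% of genes were, and the median was -1.66.

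BM CD11b+ cells of MxCre mice had a median of 0.01 against LSK, beside -0.28 over all genes, with the members split 21 to 21. Called higher were 4 members, where 16.6% of genes were: Birc5 by 3.90 (edgeR adjusted p = 0.00991), Ube2c by 3.66 (0.0108), Cdca3 by 2.65 (0.0193) and Cenpa by 1.64 (0.0418). Called lower was Kif20b, by 2.51 (adjusted p = 0.0414), where 20.3% of genes were. These calls depend on the libraries used: 0 members were called in the fit of the 2 groups, without LSK MxCre 1 or without LSK MxCre 2. Without BM MxCre 1 the median was 0.87 and 9 were called higher, where 8.87% of genes were, and without BM MxCre 2 it was -2.49 and 28 were called lower, where 18.3% of genes were. In S3 mice the median was -0.06 beside -0.08, and Birc5, Ube2c and Cdca3 were again called higher, by 3.38, 3.01 and 2.0, where 14.4% of genes were. For all 3 genes the groups overlapped, since BM S3 640 was at 6.23, 6.23 and 6.31 log2 CPM, against 6.18 to 6.32, 6.28 to 6.46 and 6.12 to 6.37 in S3 LSK. Spleen against BM gave medians of -1.84 in MxCre and -0.77 in S3, with 0 members called in each, where 0.915% and 0.0563% of genes were; at an unadjusted p under 0.05, 26 and 7 of 42 members were lower, against 19.8% and 9.77% of all genes in either direction. BM and spleen libraries of an S3 animal deviated together, and with the replicate block the S3 median was -1.01, with 0 members called and 0 at an unadjusted p under 0.05. DESeq2 called 10 lower in MxCre, where 4.35% of genes were, and 2 in S3, where 0.962% were, and limma-voom called 0 in each. Without BM MxCre 1, edgeR called 28 lower in MxCre, where 3.45% of genes were, and without BM MxCre 2 the median was 0.74.

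Birc5 and Ube2c were higher in both MxCre CD11b+ fractions than in MxCre LSK cells, whereas their values in Ptpn11D61Y/+ spleen overlapped those of Ptpn11D61Y/+ LSK. Birc5 (survivin), the passenger complex subunit and inhibitor of apoptosis, was at 5.47 and 5.5 log2 CPM in MxCre LSK, 5.42 and 5.34 in Ptpn11D61Y/+ and 6.24, 6.18 and 6.32 in S3. In BM it was at 7.27 and 10.20 in MxCre, 8.98 and 8.15 in Ptpn11D61Y/+ and 9.29, 10.72 and 6.23 in S3. In spleen it was at 7.33 and 6.70, 5.16 and 5.51, and 6.5, 7.55 and 6.96. Unlike most members, Birc5 was higher in each CD11b+ MxCre library than in LSK. Ube2c, the ubiquitin-conjugating enzyme of the APC/C, ran from 5.35 to 6.46 in LSK, from 6.23 to 10.36 in BM and from 5.05 to 7.35 in spleen. Together these genes made up 2.83% to 3.6% of the summed CPM of the 42 genes in LSK libraries, 40.6% in BM S3 815 and 5.55% in BM S3 640. Per kilobase of exon, Cks2 (55.0 CPM per kb), Top2a (45.4) and Cdc20 (41.3) led in LSK, as medians of 7 libraries, and Ube2c (227), Ccnb2 (149.4) and Birc5 (148.7) led in BM. Kif20b, a kinesin, was last in BM at 2.53.

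Transcript length and GC content moved with these differences. Relative to MxCre LSK cells, the shift of the 42 members correlated with the length of their longest protein-coding transcript (log2) at -0.194 to -0.600 in the 7 BM libraries and -0.265 to -0.617 in the 7 spleen libraries, and with its GC content at 0.350 to 0.633 and 0.304 to 0.556. In S3 LSK libraries the correlation with length was -0.315 to -0.413 and with GC content 0.105 to 0.244. In the Ptpn11D61Y/+ LSK libraries it was -0.350 and -0.710 with length, the latter the strongest of the 21 libraries, and -0.164 and 0.277 with GC content. These are descriptions over 42 genes that share a library. The part of length, GC content and library quality in the differences between fractions was not tested.

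The change from MxCre to S3 was also compared between fractions. It was 0.97 larger in spleen than in LSK as a median over members, beside 0.31 over all genes, with 0 called where 0.00511% of genes were, and 2 of 42 members at an unadjusted p under 0.05, against 13.4% of all genes. Kif20a, Cenpf and Mki67 differed most, by 4.43, 2.51 and 2.20, and Cks2 in the other direction, by -2.26. Without spleen S3 640 the median was 0.24. BM minus LSK had a median of -0.14 beside 0.17, and spleen minus BM of 1.02 beside 0.01, with 0 members called in either, where 0% and 0% of genes were. These 2 medians turned on single libraries: they were 2.38 and -1.63 without BM MxCre 2, -1.0 and 1.94 without BM MxCre 1, and the second was 0.23 without spleen S3 640. With the replicate block they were 0.25 and 0.34. At an unadjusted p under 0.05, 0 and 1 members passed. Over all genes 8.12% and 10.7% did. DESeq2 called Cks2, lower, in the first of these 3 differences, where 0.938% of genes were, and 0 members in the others, and limma-voom called 0 in each.

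The regulators of these genes were described next. Of 16 genes of the MuvB, DREAM, FOXM1, E2F and NF-Y factors, edgeR called 0 between S3 and MxCre in any fraction, with medians of 0.21 in LSK, 0.98 in spleen and 0.26 in BM. At an unadjusted p under 0.05, 7 passed in spleen, against 25.3% of all genes, and 0 elsewhere, DESeq2 called 5 higher in spleen, where 6.63% of genes were, and limma-voom called 0. Foxm1 was at 6.18 and 6.29 log2 CPM in MxCre LSK, 5.92 and 5.92 in Ptpn11D61Y/+ and 6.39, 6.51 and 6.70 in S3. Mybl2 (B-MYB) was at 5.58 and 5.66, 5.48 and 5.55, and 6.37, 6.27 and 6.42. In spleen Foxm1 was at 3.20 and 3.90 in MxCre, 3.74 and 3.49 in Ptpn11D61Y/+ and 4.32, 3.36 and 6.69 in S3. S3 lay above all controls in LSK for both, and in spleen S3 815 lay within the controls for Foxm1. Between MxCre spleen and LSK, Foxm1, Mybl2, Lin9, E2f3 and Nfya were called lower, by 2.65, 3.55, 2.28, 2.56 and 1.36 on the log2 scale, where 22.4% of all genes were, and E2f2, the most abundant gene of the list and known for its role in erythroid division, higher by 1.97, where 19.2% were.

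The other mitotic genes fell into 4 lists. edgeR and limma-voom called 0 of their genes between S3 and MxCre in any fraction. In spleen 13, 7, 4 and 4 genes passed at an unadjusted p under 0.05 in the order below, against 25.3% of all genes, and DESeq2 called 7, 4, 2 and 4, all higher, where 6.63% of genes were. At an unadjusted p the 7 of 27, 4 of 19 and 4 of 15 genes lay near the share of all genes. In BM 1 spindle gene passed at an unadjusted p and in LSK 0, and DESeq2 called 0 in both. The 31 other spindle, condensin and cytokinesis genes had medians of 0.39 in LSK, 1.30 in spleen and 0.44 in BM, and 13 were called lower in MxCre spleen than LSK, where 22.4% of all genes were, among them Aspm (-3.78), Ncapg (-3.38), Kif18a (-3.70) and Ncapd2 (-2.39), the most abundant. The 27 other checkpoint, kinetochore and passenger genes had medians of 0.39, 0.89 and 0.32, and 7 were called lower in MxCre spleen than LSK, where 22.4% of all genes were, such as Knl1 (-4.03), the platform of the kinetochore. The 19 other entry and exit regulators had medians of 0.31, 1.11 and 0.29. Of these 19, 4 were called lower and 3 higher in MxCre spleen than LSK, near the shares of all genes (22.4% and 19.2%). Wee1, the kinase that restrains CDK1, was lower by 4.20, and Pttg1 (securin), which guards sister chromatid cohesion, was higher by 4.81. The 15 APC/C subunit genes had medians of 0.24, 0.56 and 0.17. Between MxCre spleen and LSK 5 of the 15 were called lower, where 22.4% of all genes were, such as Cdc23 (-4.31) and Anapc5 (-1.53), the most abundant, and 3 higher, where 19.2% were, such as Anapc13 (1.87).

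DNA replication genes were described beside the mitotic genes to see whether the earlier phase of the cycle differed. Of 40 such genes edgeR and limma-voom called 0 between S3 and MxCre in any fraction. In spleen 19 passed at an unadjusted p under 0.05, against 25.3% of all genes, and DESeq2 called 12, all higher, where 6.63% of genes were, with 0 by either count in LSK and BM. Their medians were 0.36 in LSK, 1.25 in spleen and 0.35 in BM, beside 0.54, 1.47 and 0.42 for the mitotic genes. In MxCre spleen, 21 of 40 were called lower than in LSK, where 22.4% of all genes were, such as Mcm6 (-3.65), a subunit of the replicative helicase, and Pole (-4.63), the leading-strand polymerase. Genes that act before S phase were mixed. Of 15 CDK inhibitors, D cyclins, their kinases and pocket proteins, 2 were called higher and 2 lower in S3 than in MxCre spleen, where 4.19% of all genes were called in either direction. Ccnd1 and Ccnd2, the D-type cyclins, rose by 2.28 and 2.43 (edgeR adjusted p = 0.0279 and 0.0319), and the CDK inhibitors Cdkn1a (p21) and Cdkn1b (p27) fell by 2.23 and 1.25 (0.0143 and 0.0171). Cdkn1a was at 7.75 and 8.32 log2 CPM in MxCre spleen, 5.80 and 6.90 in Ptpn11D61Y/+ and 5.83, 5.85 and 5.82 in S3. Ccnd1 was at 4.90 and 3.96, 7.88 and 7.06, and 7.57, 6.51 and 5.61, so for both genes Ptpn11D61Y/+ overlapped with S3. In that group Ccnd1 was 3.03 higher and Cdkn1b 1.39 lower than in MxCre, both called. Ccnd3, the most abundant of the list, was at 7.05 and 8.27 in MxCre spleen and 8.55, 6.91 and 8.66 in S3.

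The 10 genes outside the 42 whose log2 CPM followed the mean of the 42 most closely over the 21 libraries were Rad51ap1 (Pearson r = 0.986), Prc1 (0.985), Kif4 (0.985), Dlgap5 (0.983), Cdc6 (0.977), Tyms (0.976), Fbxo5 (0.976), Rnf26 (0.976), Esco2 (0.975) and Rrm1 (0.972). Of these, 7 were on the other lists used here.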

How the data were processed

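RNA of 21 libraries of isolated cells was sequenced after TruSeq Stranded mRNA preparation. According to the labels and the study's methods, the authors trimmed reads with Trim Galore 0.6.5, aligned them to the mouse genome (mm10) with STAR 2.5.3a and deposited raw counts per Ensembl gene for each library; the counting program, its annotation and its use of strand are not given in the sources used here. Symbols and positions came from GENCODE M21 (GRCm38), and 9 members overlap another gene on their strand and 17 one on the other strand, so some counts are shared or uncertain.

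Counts were filtered (filterByExpr), scaled (TMM) and fitted with edgeR 4.0.16 (glmQLFit, robust, R 4.3.3) over all 9 groups, with Benjamini-Hochberg adjustment over 19555 genes, of which those with adjusted p under 0.05 were called. For levels, a prior count of 2 was added before CPM were put on the log2 scale. The fit had 12 residual degrees of freedom. The study's methods give 3 mice per genotype for CD11b+ cells of MxCre and S3 mice; 2 MxCre libraries per fraction were analysed here, and the labels do not tie control numbers to mice, so p-values measure the spread between these libraries. Alternatives were DESeq2 1.42.0, limma-voom (limma 3.58.1), RLE and library-size scaling, other filters, only the groups compared, a replicate block and leaving out each library. Added after seeing the data were fits without the 3 libraries with the fewest detected genes and of the 7 libraries of one fraction. Pairing was checked: the BM and spleen libraries of S3 animals 540, 815 and 640 had correlations of deviations of 0.108, 0.407 and 0.333. They were taken as paired by the animal number in the labels. The main fit, DESeq2 and limma-voom held no term for the animal, so their p-values for S3 spleen against BM do not use this pairing. Only the replicate block does. Pairs with S3 LSK libraries had -0.096 to 0.086 and the control numbers -0.173 to 0.059, which share only a number.

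The 42 members and all lists were chosen with earlier results of these data known. Named are 9 fixed genes (Cdk1, Ccnb1, Mki67, Top2a, Plk1, Aurkb, Bub1, Cdc20, Smc4), in each comparison the 3 largest and 3 smallest changes and any member called against the median, from other lists called genes and the most abundant gene, and the 10 genes most like the group; Birc5, Ube2c, Hmmr, Tacc3 and other members named for a role were chosen after their values were seen. Proteins were not analysed here, and promoters of Cdc25c, Smc4, Kif20a, Aurkb, Tpx2 and Ccna2 were not used here. No per-sample column of another series was found.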

Additional observations from a re-analysis of the deposited data

Results flagged for a closer look

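Cks2, a CDK-binding protein, was higher in every S3 LSK library than in every MxCre LSK library and lower in every S3 spleen library than in every MxCre spleen library. The change from MxCre to S3 was -2.26 (log2, standard error 0.70) in spleen relative to LSK. By edgeR's quasi-likelihood test the adjusted p of this difference was 0.222 over all genes, so it was not called, while DESeq2 called it. Its cause was not tested. Against MxCre it was the only one of the 42 genes with opposite, non-overlapping directions in 2 fractions; against Ptpn11D61Y/+ its spleen values overlapped.

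Against Ptpn11D61Y/+, 17 members were higher in every S3 LSK library and lower in every S3 BM library, where 5.97% of all genes took opposite directions in this way. The difference between these fractions was not tested for them. The change from Ptpn11D61Y/+ to S3 in BM minus that in LSK (log2) was -2.30 for Ect2, -2.23 for Hmmr, -2.09 for Kif20a and -2.0 for Cks2. For Tpx2 it was -1.73, for Ccnb1 and Aurkb -1.68, for Mki67 and Ckap2l -1.65, for Gtse1 -1.56 and for Kif23 -1.54. It was -1.50 for Nusap1, -1.48 for Bub1, -1.47 for Kif20b and Cenpf, and -1.33 for Anln and Smc4. Of these genes, 8 were also higher in every S3 spleen library than in both Ptpn11D61Y/+ libraries, where 1.99% of all genes took opposite directions in spleen and BM. The change in spleen minus that in BM, also not tested, was 3.67 for Hmmr, 3.38 for Mki67, 3.21 for Anln and 3.08 for Ccnb1, and 2.34 for Nusap1 and Gtse1, 2.19 for Aurkb and 2.17 for Bub1. These differences share the same S3 and Ptpn11D61Y/+ BM libraries.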

How the results depend on the processing

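Counts below are of the 42 members called. The share of all genes called under each alternative is not given beside them. They show only how the members' own counts moved, not how the members compare with all genes. DESeq2 gave 14 for S3 against MxCre in spleen, 1 for Ptpn11D61Y/+ against MxCre in BM, 8 for BM against LSK and 10 for spleen against BM in MxCre, 2 for spleen against LSK and 2 for spleen against BM in S3, and 1 for the spleen minus LSK difference. limma-voom gave 1 for S3 against MxCre in spleen and 7 for spleen against LSK in S3. For S3 against MxCre in spleen, RLE size factors, a minimum of 10 counts and leaving out the 3 libraries with the fewest detected genes each gave 1. Without those 3 libraries, BM against LSK gave 10 and spleen against BM 7 in MxCre. Scaling by library size alone gave 0 for Ptpn11D61Y/+ against MxCre in spleen, 31 for spleen against LSK in MxCre and 2 in S3. With no filter on low counts, spleen against LSK in S3 gave 0. Fits of only the groups compared gave 39 for S3 against MxCre, 7 for Ptpn11D61Y/+ against MxCre and 41 for S3 against Ptpn11D61Y/+ in LSK, 0 for Ptpn11D61Y/+ against MxCre in spleen, and 0 for BM and 36 for spleen against LSK in MxCre. Fits of the 7 libraries of a fraction gave 38, 1 and 41 for the same LSK comparisons and 0 for Ptpn11D61Y/+ against MxCre in spleen. With the replicate block, BM against LSK in S3 gave 5, spleen against LSK in S3 gave 3, and Ptpn11D61Y/+ against MxCre gave 4 in LSK and 6 in spleen; beyond S3 BM and spleen the numbers are not known to pair the libraries. It moved no other count of calls by over 1.5 times, but the 5 calls for BM against LSK in MxCre became 2 higher and 3 lower.

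Leaving out each library in turn gave 0 to 29 for S3 against MxCre and 0 to 35 for Ptpn11D61Y/+ against MxCre in BM, the highest without BM MxCre 2, and 0 to 1 for Ptpn11D61Y/+ against MxCre in spleen. In MxCre it gave 0 to 28 for BM against LSK, 1 to 7 for spleen against LSK and 0 to 28 for spleen against BM. In S3 it gave 1 to 6, 0 to 15 and 0 to 2 in the same order. The BM minus LSK difference ranged from 0 to 3 and spleen minus BM from 0 to 1. With 1 library left in a group, it was assumed to vary like the others. The share of all genes called also moved between these fits and is not given beside the counts. These ranges therefore do not separate a change in the members from a change over all genes. In spleen without S3 640, the changes of Hjurp and Cdk1 from MxCre to S3 turned to -0.39 and -0.09; over all libraries left out they ranged from -0.39 to 0.89 and from -0.09 to 0.65. Of 716 single-member values, 553 kept their direction and side of the threshold, 134 were weaker, 27 stronger and 2 reversed. Of the 238 values from leaving out 1 library, 142 were the same, 94 weaker, 0 stronger and 2 reversed. The 21 libraries are deep, and the spread between libraries, not counting error, limits these comparisons.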
